A study of Homo sapiens with 12 samples.

Results

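Transcripts of 10 feedback genes of the ERK pathway were followed in MDA-MB-231 cells, a long-used human cell line from a triple-negative breast tumour. The genes were chosen by name, with earlier results of these data known, so shares over all genes are given beside them for scale only. They were the phosphatase genes DUSP4, DUSP5 and DUSP6, the Sprouty genes SPRY2 and SPRY4, and the SPRED genes SPRED1 and SPRED2. The ETS factor genes ETV4 and ETV5 and PHLDA1 completed the 10. All 10 were found among the 57773 genes of the count table, and all 10 passed the filter on low counts that left 20571 genes for testing. The 12 libraries fall into 4 groups of 3: cells given TGFβ for 48 h (TGFB), cells given alisertib for 48 h (ALIS), cells given TGFβ together with alisertib for 48 h (Combination), and cells with no treatment (CTL). All groups are this 1 line, grown in DMEM with serum in flasks, and the labels give no doses. They also do not say whether replicate libraries stem from separately grown cells, so p-values measure only the spread among libraries, which may be technical. TGFβ is a cytokine whose receptors act through SMAD transcription factors, and alisertib is an inhibitor of the mitotic kinase Aurora A.

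In the ERK pathway, ligand-bound receptor kinases load RAS with GTP, and RAS then starts a relay of the kinases RAF, MEK and ERK. Active ERK turns on genes that shut the same relay down, so the transcript levels of these genes are widely used as a readout of pathway output. DUSP phosphatases remove the activating phosphates from ERK itself, and Sprouty and SPRED proteins act further upstream at the level of the receptors, RAS and RAF. ETV4 and ETV5 are transcription factors, included as targets of the pathway and not as inhibitors of it.

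Total counts per library were 110282980 to 118220032 in TGFB, 97048328 to 105563951 in ALIS, 105921831 to 120619368 in Combination and 93701658 to 100328721 in CTL. Every library held at least 1835 reads of every one of the 10 genes. Levels are given as CPM, the read count scaled to a common library size, and, where genes are compared with each other, as the deposited RPKM, which also divides by gene length. PMEPA1, SMAD7, SKIL and TGFBI, kept as a check of the TGFβ response, rose in TGFB against CTL, by 1.96 to 3.73 on the log2 scale. Among them TGFBI alone was lower in Combination against TGFB (-0.24 ± 0.04, edgeR adjusted p = 0.0124), beside 0.89% of all tested genes. TGFBI rose by 3.14 in TGFB against CTL and by 2.74 in Combination against ALIS. Its interaction value, defined below, was -0.40 ± 0.06 (edgeR adjusted p = 0.0157), and the others did not pass there. VIM and CD44, which mark mesenchymal carcinoma cells, summed to 3718 to 3950 CPM in TGFB, 2605 to 2715 in ALIS, 3785 to 3966 in Combination and 2344 to 2533 in CTL. ESR1 and PGR, whose absence defines triple-negative cells together with low ERBB2, were at most 0.0423 and 0.0286 CPM in any library. With FOXA1 and GATA3 and with ERBB2, which made up most of it, that luminal list summed to 62.1 to 74.7 CPM in TGFB, 54.5 to 66.3 in ALIS, 54.3 to 67.3 in Combination and 56.1 to 80.8 in CTL. GATA3, a luminal transcription factor gene, was lower with TGFβ, at 3.65 ± 0.31 CPM in TGFB, 6.60 ± 0.86 in ALIS, 3.99 ± 0.54 in Combination and 7.08 ± 0.39 in CTL (log2 fold change of TGFB over CTL -0.96 ± 0.12, adjusted p = 1.53e-05, and of Combination over CTL -0.83 ± 0.12, adjusted p = 5.7e-05).

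Among markers of other cell types, 3 of 3 fibroblast genes (COL1A1, COL1A2 and PDGFRB), which mesenchymal carcinoma cells also express, rose with TGFβ. Their summed level was 178.5 to 211.8 CPM in TGFB, 22 to 26 in ALIS, 136.9 to 186.3 in Combination and 22.9 to 30.7 in CTL. Of leukocyte markers PTPRC and CD3E were at most 0.180 and 0.0399 CPM in any library, while CD68, a lysosomal protein gene, was at 71.1 to 79.6 CPM in TGFB, 65.4 to 70.9 in ALIS, 80.5 to 91.8 in Combination and 43.9 to 57.7 in CTL. The endothelial genes CDH5 and VWF were at most 0.0915 and 0.0858 CPM. The part of these marker changes in the results was not tested, and in such bulk libraries fewer cells of a type cannot be told apart from less RNA per cell.

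In each group 1 library stood apart: TGFB library 6, ALIS library 9, Combination library 10 and CTL library 1. In these 4, genes rich in GC lay below and genes poor in GC above their group mean (Spearman rho of deviation and GC content across 11083 genes -0.787 to -0.724), while rho was 0.158 to 0.806 in the other 8. Deviations from a group mean cancel out within the group, so opposite signs among its libraries are partly built in. The rho runs across genes, which are no independent replicates, and only describes the libraries. Counts of called genes are given below with all libraries, and also without these 4 where that changed the outcome. The 4 were picked from these same counts. Fits without them hold fewer libraries in each group and tend to have a narrower spread, so calls that they add are no independent support.

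TGFβ lowered DUSP6 most, then PHLDA1, DUSP5, SPRED1, DUSP4 and, by little, SPRY2. In TGFB against CTL, 6 of the 10 genes fell, none rose and 4 did not pass, where a gene is called at an adjusted p under 0.05. Over all tested genes 38.6% were called, 20.1% lower and 18.5% higher. Of the called genes 47.8% were higher, and 32.6% when libraries were scaled by total counts only, a scaling that called 8 of the 10 lower and moved the median over all tested genes to -0.10. TGFB and CTL libraries did not overlap for 7 of the 10, beside 46.4% of all tested genes. The median log2 fold change of the 10 genes was -0.38, beside -0.01 over all tested genes. Without the 4 libraries that stood apart, 7 of the 10 fell, SPRY4 being the one added, and in that fit 45.3% of all tested genes were called, 21.7% lower. Together the 10 genes took 0.0541% to 0.056% of all counts in TGFB, 0.0851% to 0.0892% in ALIS, 0.062% to 0.0658% in Combination and 0.0831% to 0.0856% in CTL.

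DUSP6 (ENSG00000139318, hg19 chr12:89741009-89747048) encodes a cytoplasmic phosphatase selective for ERK and changed most. Its level was 17.2, 19.9 and 19.4 CPM in the 3 TGFB libraries, against 55.5, 54.3 and 53.9 CPM in the 3 CTL libraries. All 3 TGFB libraries lay below all 3 CTL libraries. The log2 fold change was -1.53 ± 0.07 (SE), a 2.90-fold lower level, and edgeR's quasi-likelihood test gave an adjusted p of 2.04e-10.

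DUSP5 (ENSG00000138166, hg19 chr10:112257596-112271302) encodes a nuclear phosphatase that is also selective for ERK. It was measured at 21.1, 20.1 and 19.2 CPM in TGFB, against 32.1, 34 and 31.7 CPM in CTL, a log2 fold change of -0.70 ± 0.07 (adjusted p = 8.91e-07). DUSP4 (ENSG00000120875, hg19 chr8:29190581-29208185), a nuclear phosphatase of broader choice among MAP kinases, stood at 103, 103.4 and 108.3 CPM in TGFB, against 152.8, 158.1 and 157.3 CPM in CTL. Its log2 fold change was -0.57 ± 0.04 (adjusted p = 4.41e-08). For both genes the groups were separate, and the fall was 1.62-fold for DUSP5 and 1.49-fold for DUSP4.

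**Figure D1:**
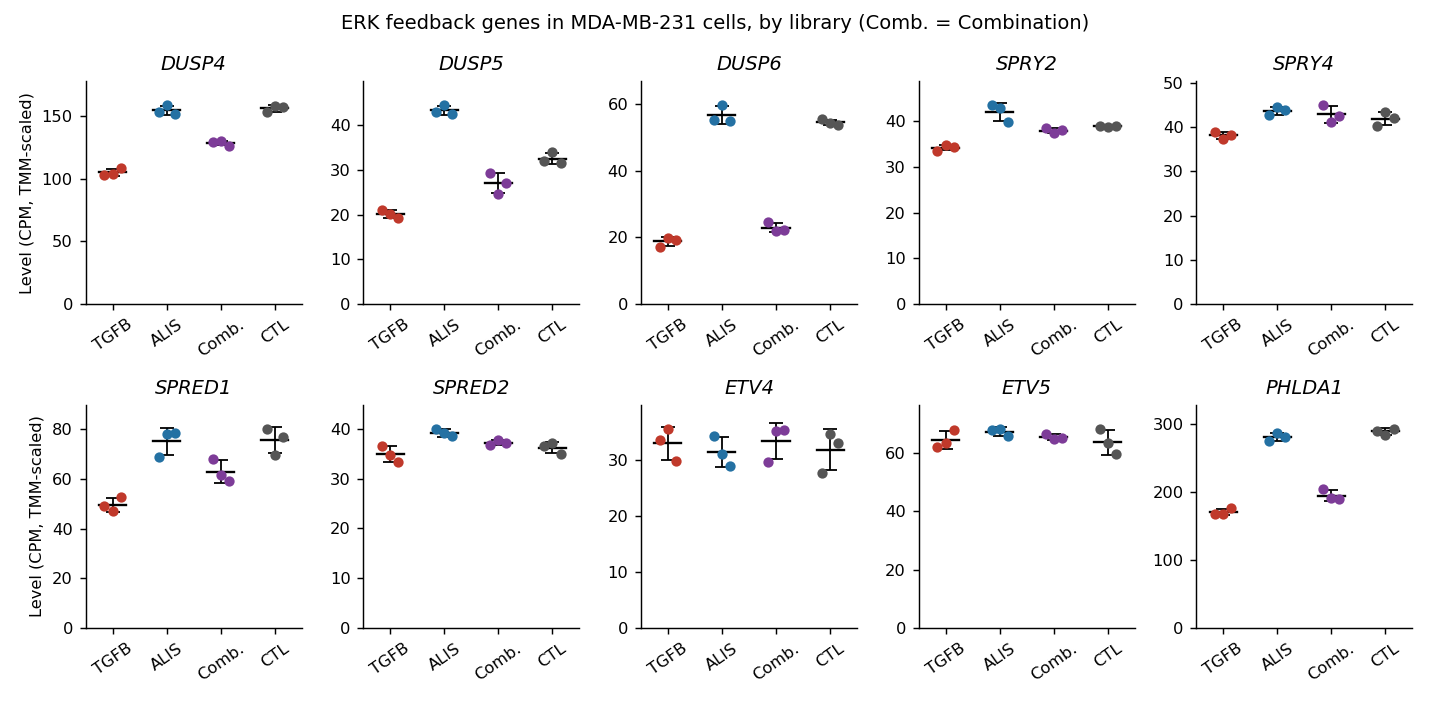
Levels of the 10 genes in CPM (y axes, linear and from 0) in the 3 libraries of each of the 4 groups, with points for libraries, a bar for the mean and whiskers for the SD. DUSP6 lay at 17.2 to 19.9 CPM in TGFB and 22 to 24.6 in Combination, below its 54.8 to 59.8 in ALIS and 53.9 to 55.5 in CTL, while ETV4 and ETV5 overlapped between TGFB and CTL.

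PHLDA1 (ENSG00000139289, hg19 chr12:76419227-76427712) encodes a pleckstrin homology-like protein that growth factors induce. It was the most abundant of the 10 per length. Its level was 167.8, 167.9 and 175.6 CPM in TGFB, against 290.1, 283.2 and 292.9 CPM in CTL, a log2 fold change of -0.76 ± 0.04 (adjusted p = 3.78e-09). The groups were separate. The locus overlaps 2 counted non-coding loci with few reads (8.9 and 24.8 on average, beside 24540.3 for PHLDA1).

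SPRED1 (ENSG00000166068, hg19 chr15:38544527-38649450) encodes a membrane-bound inhibitor that brings neurofibromin to RAS. Its levels were 49, 47 and 52.7 CPM in TGFB, against 80.2, 69.8 and 76.8 CPM in CTL. The groups did not overlap, and the log2 fold change was -0.61 ± 0.07 (adjusted p = 1.08e-05). SPRED2 (ENSG00000198369, hg19 chr2:65537985-65659771), its close relative, overlapped between the groups with 36.6, 34.8 and 33.4 CPM in TGFB, against 36.6, 37.1 and 35 CPM in CTL. The log2 fold change of SPRED2 was -0.05 ± 0.05 (adjusted p = 0.452), with a 95% interval of -0.16 to 0.06. With total counts as the only scaling it was -0.14 and passed (adjusted p = 0.0306). The difference between the responses of these relatives was not tested.

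Of the Sprouty genes SPRY2 fell and SPRY4 did not pass. SPRY2 (ENSG00000136158, hg19 chr13:80910111-80915086), whose product holds back receptor signalling to RAS, had 33.6, 34.7 and 34.3 CPM in TGFB, against 39, 38.7 and 38.8 CPM in CTL. The groups were separate and the fall was 1.14-fold (log2 fold change -0.18 ± 0.05, adjusted p = 0.00816). SPRY4 (ENSG00000187678, hg19 chr5:141689992-141706020), a relative of SPRY2, was at 39, 37.3 and 38.2 CPM in TGFB, against 40.4, 43.4 and 42 CPM in CTL. Its log2 fold change of -0.14 ± 0.05 did not pass, with no overlap between the groups (adjusted p = 0.0508), and it passed without the 4 libraries that stood apart (-0.16, adjusted p = 0.00761) and without CTL library 1 alone (-0.16, adjusted p = 0.0257), and was lower still with total counts as the only scaling (-0.23, adjusted p = 0.0037).

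ETV4 and ETV5, transcription factors of the PEA3 group of ETS proteins, did not pass in this comparison. ETV5 (ENSG00000244405, hg19 chr3:185764097-185828107) was measured at 62.1, 63.7 and 68.2 CPM in TGFB, against 68.3, 63.4 and 59.7 CPM in CTL. The groups overlapped almost fully (log2 fold change 0.02 ± 0.06, adjusted p = 0.817, 95% interval -0.10 to 0.14). ETV4 (ENSG00000175832, hg19 chr17:41605212-41656988) was at 33.5, 35.5 and 29.7 CPM in TGFB, against 27.6, 34.5 and 33 CPM in CTL, with a log2 fold change of 0.05 ± 0.10 (adjusted p = 0.726, 95% interval -0.16 to 0.26). That standard error was the widest of the 10. When GC content and length were offset, the log2 fold change of ETV4 was -0.215 ± 0.04 and passed (adjusted p = 0.000309). That offset also takes out differences between groups that follow GC content or length.

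ETV4 and SPRED1 also varied with the library. ETV4, whose longest transcript has 60.8% GC, was lowest within its group in all 4 of the libraries that stood apart, by 0.11 to 0.19 on the log2 scale below the group mean. SPRED1, with 38.9% GC the poorest in GC of the 10, was highest within its group in all 4, by 0.06 to 0.11. The ETV4 locus also overlaps DHX8, a helicase gene with 11669.9 reads on average beside 3430.1 for ETV4, and since the library kit does not mark the strand their reads cannot be told apart where they share sequence. The ETV5 locus overlaps DGKG, a diacylglycerol kinase gene with 554.1 reads on average beside 6926 for ETV5.

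**Figure D2:**
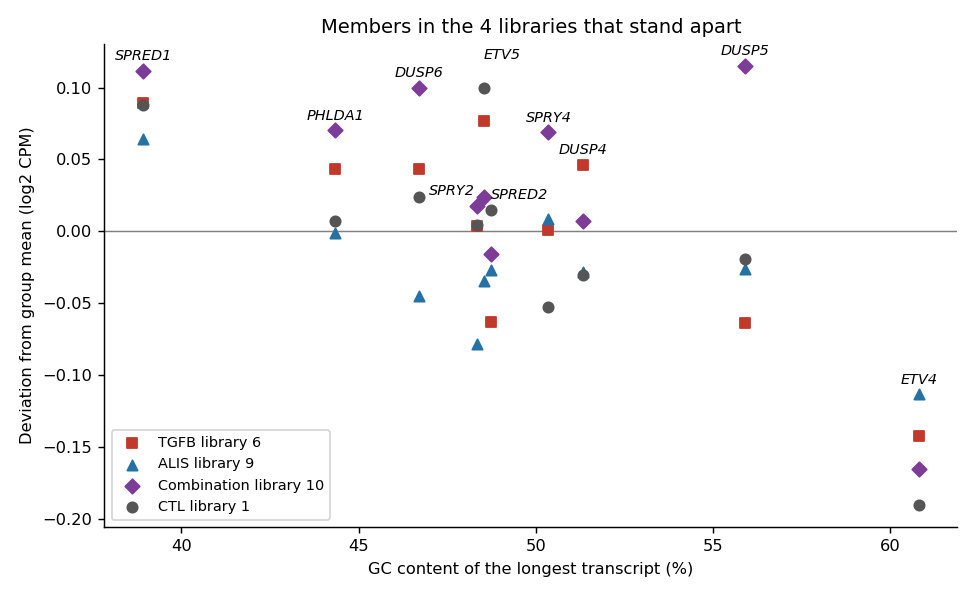
Deviation of each of the 10 genes from its group mean (y axis, log2 CPM) in TGFB library 6, ALIS library 9, Combination library 10 and CTL library 1, against the GC content of its longest transcript (x axis, percent). ETV4 at 60.8% GC lies below 0 in all 4 libraries and SPRED1 at 38.9% GC lies above 0 in all 4.

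The order of the genes by length-scaled level differed between the groups. In CTL the deposited RPKM was 33.2 for PHLDA1, 20 for DUSP4, 11.6 for DUSP5, 11 for SPRY2, 10.9 for DUSP6, 10.2 for ETV5, 8.49 for SPRED1, 8.17 for ETV4, 6.57 for SPRY4 and 6.53 for SPRED2. The ranges of neighbours overlapped between SPRY2 and DUSP6, SPRED1 and ETV4, and SPRY4 and SPRED2. In TGFB the lowest of the 10 was DUSP6 at 3.55 ± 0.27 RPKM (SD, n = 3), next to SPRED1 at 5.25 ± 0.33, and their ranges of 3.25 to 3.74 and 4.95 to 5.60 RPKM did not overlap.

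The promoter windows of DUSP6, PHLDA1 and SPRED1 are shown because all 3 genes fell with TGFβ, PHLDA1 and DUSP6 most of the 10. Of the 10 genes 6 had a promoter in the RefSeq table (GRCh38.p14), and the sequences are the 250 bases before the annotated start, 5′ to 3′ on the strand of the gene. They lie at chr12:89352502-89352751 on the minus strand for DUSP6, chr12:76031777-76032026 on the minus strand for PHLDA1 and chr15:38252586-38252835 on the plus strand for SPRED1. Capitals mark CGGAA or its reverse complement, a narrower form of the GGAA core that ETS factors read. GGAA after a base other than C was neither marked nor counted.
DUSP6: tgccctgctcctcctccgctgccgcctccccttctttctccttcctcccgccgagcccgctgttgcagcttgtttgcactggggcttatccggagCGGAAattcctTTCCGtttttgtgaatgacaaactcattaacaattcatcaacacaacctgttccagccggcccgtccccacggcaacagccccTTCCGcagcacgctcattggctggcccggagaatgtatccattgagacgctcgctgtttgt
PHLDA1: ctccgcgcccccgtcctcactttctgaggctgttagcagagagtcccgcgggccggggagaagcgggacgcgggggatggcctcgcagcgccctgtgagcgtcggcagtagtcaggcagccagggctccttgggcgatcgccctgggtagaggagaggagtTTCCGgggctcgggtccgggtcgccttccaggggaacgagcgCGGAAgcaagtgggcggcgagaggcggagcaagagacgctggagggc
SPRED1: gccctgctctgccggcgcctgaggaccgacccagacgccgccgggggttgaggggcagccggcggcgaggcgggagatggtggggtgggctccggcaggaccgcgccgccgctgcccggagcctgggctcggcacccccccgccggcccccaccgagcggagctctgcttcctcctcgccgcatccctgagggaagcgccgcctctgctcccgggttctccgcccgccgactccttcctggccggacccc
DUSP6 held CGGAA 3 times, at 155, 144 and 61 bases before the start, and PHLDA1 held it 2 times, at 89 and 47 bases. SPRED1 held none, though its window does hold GGAA after another base. Where a gene had several annotated starts, the first in the table was used. Of the other genes in the table SPRY2 held 2, while SPRY4 and SPRED2 held none, and 30.3% of all 35116 promoters of the same length held at least 1. None of the 6 windows held the longer ETS form CCGGAAG (8.52% of all promoters), the AP-1 form TGANTCA (6.57%), the cyclic AMP element TGACGTCA (1.65%), the SMAD palindrome GTCTAGAC (0.182%) or a CArG box (1.16%), all searched on both strands. The short form CGGAA was searched after the longer form had matched none, and a match describes letters only.

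Alisertib alone changed 1 of the 10 genes, DUSP5, which rose in ALIS against CTL. Over all tested genes 6.74% were called, 3.55% higher and 3.19% lower. ALIS and CTL libraries did not overlap for 3 of the 10 (DUSP5, SPRY2 and SPRED2), beside 21.6% of all tested genes. DUSP5 had 42.9, 44.6 and 42.6 CPM in ALIS, against 32.1, 34 and 31.7 CPM in CTL, with no overlap. The log2 fold change was 0.41 ± 0.07, a 1.33-fold higher level (adjusted p = 0.00162), and it passed under all 14 other settings tried. The other 9 genes had log2 fold changes of -0.04 to 0.11. For DUSP6 it was 0.05 ± 0.07 (adjusted p = 0.709, 95% interval -0.09 to 0.19), with 55.3, 59.8 and 54.8 CPM in ALIS. For PHLDA1 it was -0.04 ± 0.04 (adjusted p = 0.645, 95% interval -0.14 to 0.05). Without the 4 libraries that stood apart 4 of the 10 were called higher, SPRY2, SPRED2 and ETV5 joining DUSP5 with log2 fold changes of 0.16, 0.14 and 0.15. In that fit 24.5% of all tested genes were called, 11% higher and 13.5% lower.

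In cells that also received TGFβ, alisertib went with higher levels of several feedback genes. In Combination against TGFB, 5 of the 10 genes rose, none fell and 5 did not pass. Over all tested genes 2.08% were called, 1.19% higher and 0.89% lower. Combination and TGFB libraries did not overlap for 8 of the 10, beside 20.4% of all tested genes. The median log2 fold change of the 10 was 0.18, beside 0.00 over all tested genes. The count of 5 fell to 2 without TGFB library 4 or 5 or Combination library 10 or 11, and to 3 without TGFB library 6 or Combination library 12.

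DUSP5 was measured at 29.3, 24.8 and 27.1 CPM in Combination, against 21.1, 20.1 and 19.2 CPM in TGFB, a log2 fold change of 0.43 ± 0.07 (adjusted p = 0.00367). DUSP4 stood at 129, 130 and 126.3 CPM in Combination, against 103, 103.4 and 108.3 CPM in TGFB, a log2 fold change of 0.29 ± 0.04 (adjusted p = 0.00185). Neither gene overlapped between the groups, and both passed under all 14 other settings tried.

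SPRED1 rose by 0.34 ± 0.07 on the log2 scale (adjusted p = 0.026), with 67.9, 61.6 and 59.2 CPM in Combination, against 49, 47 and 52.7 CPM in TGFB. DUSP6 rose by 0.29 ± 0.07 (adjusted p = 0.0403), with 24.6, 22 and 22.3 CPM in Combination, against 17.2, 19.9 and 19.4 CPM in TGFB. PHLDA1 rose by 0.19 ± 0.04 (adjusted p = 0.0373), with 204.2, 190.3 and 189.2 CPM in Combination, against 167.8, 167.9 and 175.6 CPM in TGFB. None of these 3 overlapped between the groups. DUSP6 and PHLDA1 missed the threshold without any 1 of the 6 libraries compared (adjusted p of 0.0653 to 0.191 and 0.0632 to 0.169), and SPRED1 missed it without TGFB library 4 or 5 or Combination library 10 or 11, with adjusted p of 0.117, 0.139, 0.105 and 0.0679.

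SPRY2 and SPRY4 had log2 fold changes of 0.15 ± 0.05 and 0.17 ± 0.05 (adjusted p = 0.169 and 0.128), and neither overlapped between Combination and TGFB. With an indicator for the 4 libraries that stood apart both passed (adjusted p = 0.027 and 0.0146), as they did when GC content and length were offset (0.0495 and 0.014). SPRED2 had a log2 fold change of 0.09, and ETV4 and ETV5, which overlapped between the groups, had 0.02 each.

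With alisertib present, TGFβ still lowered DUSP4, DUSP5 and DUSP6. In Combination against ALIS 6 of the 10 genes fell and none rose, while 38.4% of all tested genes were called, 19% lower and 19.4% higher. Of the called genes 50.6% were higher, and 33.4% with total counts as the only scaling. Combination and ALIS libraries did not overlap for 7 of the 10 (the 6 and SPRED2), beside 50.3% of all tested genes. The log2 fold changes were -1.30 ± 0.07 for DUSP6, -0.68 ± 0.07 for DUSP5, -0.53 ± 0.04 for PHLDA1, -0.26 ± 0.04 for DUSP4, -0.26 ± 0.07 for SPRED1 and -0.15 ± 0.05 for SPRY2. DUSP6 lay at 24.6, 22 and 22.3 CPM in Combination, against 55.3, 59.8 and 54.8 CPM in ALIS, a 2.46-fold lower level (adjusted p = 1.47e-09). SPRY2 passed at an adjusted p of 0.0274 and SPRED1 at 0.0122. SPRY2 lost its call without ALIS library 7 or 8 or Combination library 11 or 12 (adjusted p = 0.0856, 0.0943, 0.096 and 0.0575), with no filter on low counts (0.0807) and when GC content and length were offset (-0.07 and 0.158). SPRED1 lost its call without ALIS library 8 (0.0534) or Combination library 12 (0.0505).

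**Figure D3:**
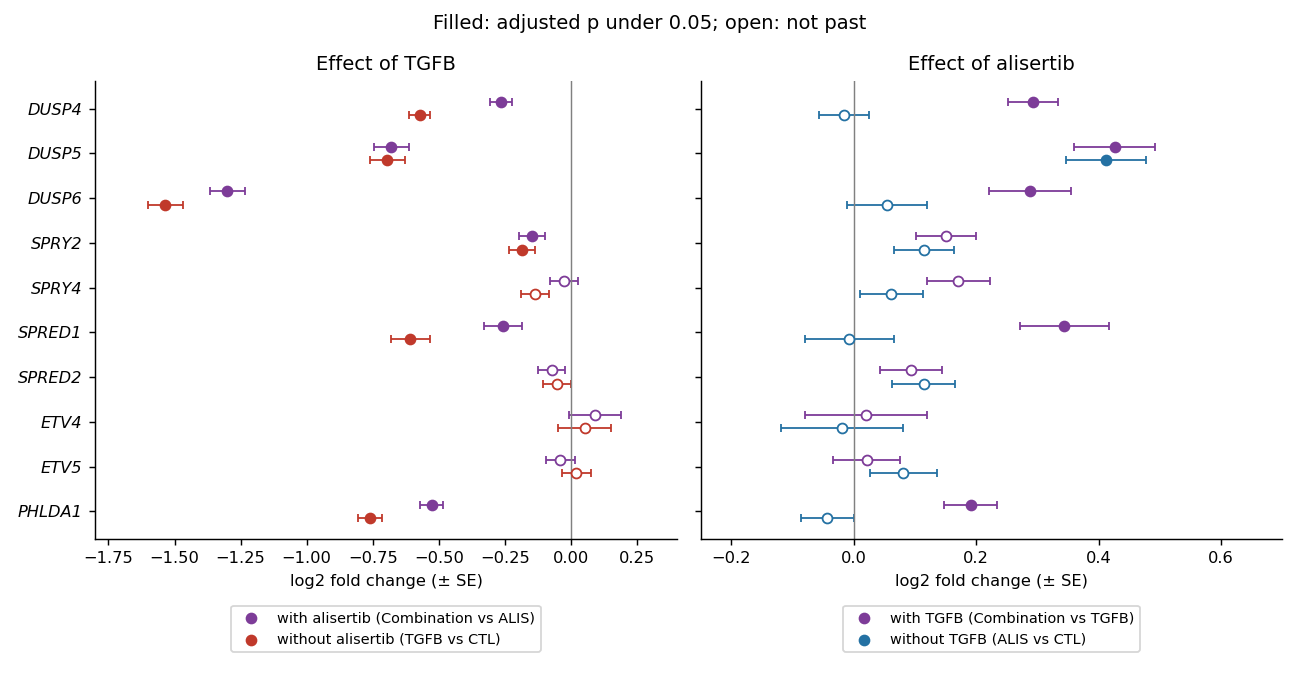
Log2 fold change (x axes, ± SE) of the 10 genes for TGFβ with and without alisertib (left) and for alisertib with and without TGFβ (right), filled where the adjusted p was under 0.05. Values of DUSP4 are -0.26 with alisertib and -0.57 without it on the left, and 0.29 with TGFβ and -0.02 without it on the right.

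The interaction, the log2 fold change of Combination over TGFB minus that of ALIS over CTL, asks whether the responses depend on each other. It was called for 1 of the 10 genes, DUSP4 (log2 0.31 ± 0.06, adjusted p = 0.043), while 0.282% of all tested genes were called, 0.117% above 0 and 0.165% below 0. DUSP4 was 1.20-fold lower in Combination than in ALIS and 1.49-fold lower in TGFB than in CTL. The call was lost in 13 of the 19 other settings, including every fit without 1 library other than that without CTL library 1, and its adjusted p ran from 0.000466 to 0.187. SPRED1, PHLDA1 and DUSP6 had interaction values of 0.35 ± 0.10, 0.23 ± 0.06 and 0.23 ± 0.09 (adjusted p = 0.304, 0.199 and 0.714). Without the 4 libraries that stood apart SPRED1 and PHLDA1 passed as well (0.32 and 0.21, adjusted p = 0.0298 and 0.0169), in a fit that called 3.59% of all tested genes. For DUSP5, which rose with alisertib by 0.43 in the presence of TGFβ and by 0.41 in its absence, the value was 0.01 ± 0.09 (95% interval -0.18 to 0.21) and did not pass.

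Against CTL, the Combination group held 5 of the 10 genes lower and none higher, beside 39.7% of all tested genes called, 20.3% lower and 19.4% higher. Of the called genes 48.8% were higher, and 35.6% with total counts as the only scaling. Combination and CTL libraries did not overlap for 6 of the 10 (the 5 and SPRY2), beside 45.7% of all tested genes. The log2 fold changes were -1.25 ± 0.07 for DUSP6, -0.57 ± 0.04 for PHLDA1, -0.28 ± 0.04 for DUSP4, -0.27 ± 0.07 for DUSP5 and -0.26 ± 0.07 for SPRED1. The adjusted p of these 5 ran from 1.86e-09 for DUSP6 to 0.00979 for SPRED1. SPRY2, SPRY4, SPRED2, ETV4 and ETV5 had values of -0.03 to 0.07. The comparisons above share groups, so each is given by its own values.

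Other genes of the pathway were grouped by role. Of 7 other MAP kinase phosphatase genes, 6 were tested, of which 4 rose with TGFβ in TGFB against CTL and none fell, beside 18.5% higher and 20.1% lower over all tested genes. DUSP1, an immediate-early phosphatase gene that also serves the stress kinases, had 24.2 ± 1.92 CPM in TGFB and 9.21 ± 0.72 CPM in CTL (SD, n = 3 each), a log2 fold change of 1.39 ± 0.08 (adjusted p = 2.635e-09). DUSP7, which acts on ERK in the cytoplasm as DUSP6 does, had 63 ± 4.31 CPM in TGFB and 32.6 ± 4.50 CPM in CTL (0.95 ± 0.11, adjusted p = 6.92e-06). DUSP1 was also higher in ALIS against CTL (0.75 ± 0.08, adjusted p = 6.78e-05). DUSP7 was thus higher and DUSP6 lower in TGFB than in CTL.

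Among 6 tested relatives of the other families 1 rose and 3 fell with TGFβ, to be read against the same 18.5% and 20.1%. ETV1, the remaining gene of the PEA3 group, had 21.7 ± 1.48 CPM in TGFB and 39.1 ± 0.97 CPM in CTL (-0.85 ± 0.07, adjusted p = 1.44e-07), beside the values near 0 of ETV4 and ETV5. SPRY1, chosen for mention after its values were seen, was at 1.26 ± 0.10 CPM in TGFB and 6.44 ± 0.35 CPM in CTL, a log2 fold change of -2.35 ± 0.11 (adjusted p = 4.49e-10).

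**Figure D4:**
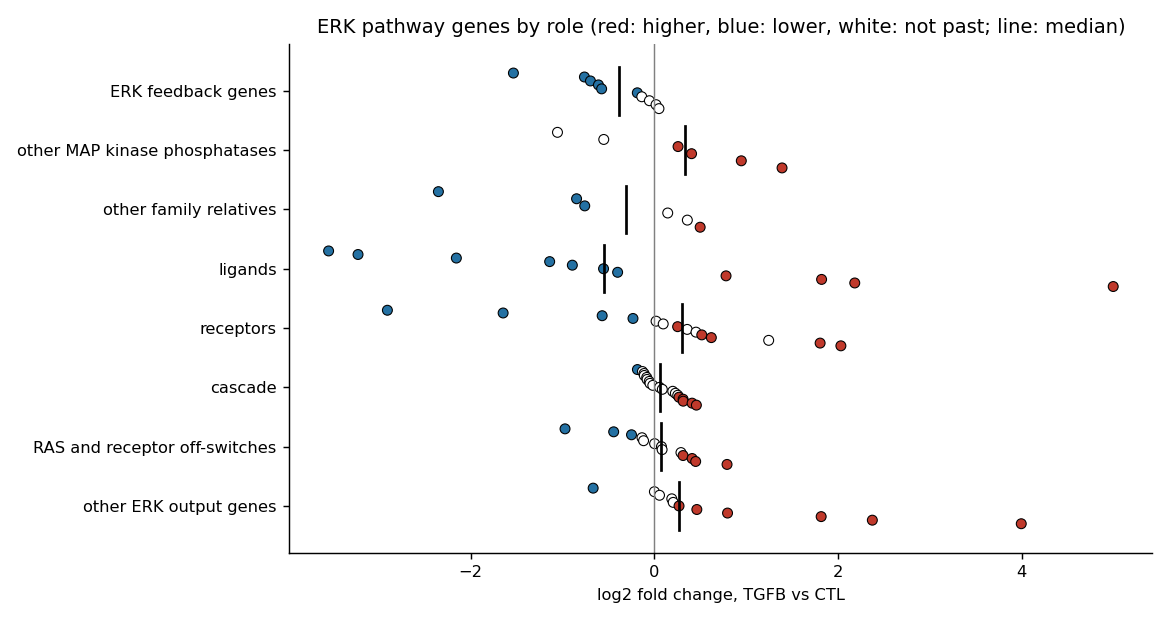
Log2 fold change in TGFB against CTL (x axis) of the 10 feedback genes and of 7 lists of other ERK pathway genes by role, 1 point a tested gene, coloured by call, with a line at each median. The 19 cascade genes lie between -0.18 and 0.46, while ligands spread from -3.55 to 4.998.

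Of 19 genes of the relay itself 5 rose and 1 fell in TGFB against CTL, where 18.5% of all tested genes were called higher and 20.1% lower, with a median log2 fold change of 0.06. MAP2K1, which encodes the ERK-activating kinase MEK1, rose by 0.46 ± 0.04 (124.7 ± 2.03 CPM in TGFB and 90.8 ± 3.64 CPM in CTL), and BRAF had -0.18 ± 0.07 (adjusted p = 0.0455). Of 13 tested off-switches of RAS and receptors 4 rose and 3 fell, beside the same shares over all genes. ERRFI1, an inhibitor of the EGF receptor, fell to 256.1 ± 8.09 CPM in TGFB, against 502.3 ± 8.16 CPM in CTL, and RASA3, a RAS GTPase-activating protein gene, rose by 0.79 ± 0.07.

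Of 11 tested ligand genes 4 rose and 7 fell with TGFβ, and of 14 receptor genes 5 rose and 4 fell, where 38.6% of all tested genes were called. These counts include genes far below 5 CPM on average. EREG, which encodes the EGF receptor ligand epiregulin, had 1.67 ± 0.24 CPM in TGFB, 22.3 ± 1.28 in ALIS, 4.40 ± 0.91 in Combination and 19.5 ± 1.32 in CTL. Its interaction value was 1.21 ± 0.18 (adjusted p = 0.0125), and EGFR itself rose by 0.52 ± 0.04 in TGFB against CTL.

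Of 11 other tested genes known as ERK output, 6 rose with TGFβ in TGFB against CTL, 1 fell and 4 did not pass, beside 38.6% of all tested genes called, with a median log2 fold change of 0.27. JUNB, an AP-1 factor gene, had 32.8 ± 6.95 CPM in TGFB and 2.04 ± 0.67 CPM in CTL (3.996 ± 0.27), and EPHA4, an ephrin receptor gene, rose by 1.82 ± 0.06. FOSL1, an AP-1 factor gene that ERK induces and stabilises, was the one that fell, with 78.4 ± 5.87 CPM in TGFB and 124.4 ± 10.6 CPM in CTL (-0.67 ± 0.08, adjusted p = 1.25e-05). In ALIS against CTL, where 3.55% of all tested genes were called higher, 5 of these 11 rose and none fell, among them FOSL1 (0.37 ± 0.08) and EPHA4 (0.46 ± 0.06). Genes far below 5 CPM on average are counted here too.

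In Combination against TGFB, where 2.08% of all tested genes were called, 5 of 11 ligands rose and none fell. None of the 19 cascade genes, 13 off-switches, 6 phosphatases and 6 relatives was called at an edgeR adjusted p under 0.05, and 0, 3, 2 and 0 of them had an unadjusted p under 0.05. Of 14 receptors 1 fell and none rose: INSR, the insulin receptor gene, had 30.8 ± 0.57 CPM in Combination and 38.7 ± 1.65 CPM in TGFB (-0.33 ± 0.05, adjusted p = 0.00596). Of 11 output genes 1 rose, CCND1, the gene of cyclin D1 (0.18 ± 0.04, adjusted p = 0.037). In Combination against ALIS, where 38.4% of all tested genes were called, 4 of the 6 phosphatases rose and 1 fell, and 6 of the 11 output genes rose and 2 fell. EREG and TGFA, the gene of another EGF receptor ligand, rose by 1.40 ± 0.14 and 0.37 ± 0.05 in Combination against TGFB.

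The genes with the most similar course over the 12 libraries were sought among 9606 other protein-coding genes of at least 5 CPM, by the correlation of log2 CPM. The 12 points fall into 4 treatment groups and share the library effects above, so the values only rank genes. For DUSP6 they were CSF2RA, GNG11 and RAB11FIP1 (r = 0.998, 0.997 and 0.997). For DUSP4 they were TFPI2, FAM8A1 and EREG (0.977, 0.973 and 0.973), and for DUSP5 they were DPP4, PLIN2 and RILPL2 (0.992, 0.989 and 0.988). PHLDA1 was nearest to ST3GAL5, CSF2RA and RBM47 (0.996, 0.995 and 0.993) and SPRED1 to ARHGAP12, G2E3 and FMNL2 (0.988, 0.98 and 0.973). The top values of the other genes were 0.955 for SPRY2 with PPIF, 0.952 for ETV5 with UBE2V1, 0.941 for SPRED2 with DNAJC14 and 0.886 for SPRY4 with ATP2B4. ETV4 ranked nearest to DDA1, CLUH and MAP2K2 (0.981, 0.9746 and 0.973).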

How the data were processed

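RNA of MDA-MB-231 cells was measured in 12 libraries, 3 in each of 4 groups taken from the sample titles. Per the labels' protocols, RNA came from miRNeasy columns and libraries from TruSeq v2, a kit that keeps no strand. The submitters' processing notes name featureCounts, Subread, TopHat and bcl2fastq and the build hg19, without versions or settings. The authors deposited raw counts of reads for each gene, and beside them the authors' RPKM values, whose denominators were 1.1 to 1.11 times the total count. RPKM served only to compare genes. Coordinates are the file's.

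Counts were fitted with edgeR 4.0.16 in R 4.3.3 (filterByExpr, TMM factors, robust quasi-likelihood, all 12 libraries, 8 residual degrees of freedom). P-values were adjusted by Benjamini-Hochberg over 20571 genes, and 0.05 was the threshold. SE is the log2 fold change divided by the root of F. The alternatives were other scaling, DESeq2 1.42.0, no filter, 2 groups only, each library left out, libraries 1, 6, 9 and 10 left out or given an indicator, and an offset for GC content and length (GC from GENCODE transcripts, known for 95.5% of tested genes). The offset was fitted to deviations from the mean of all 12 libraries. It therefore also takes out group differences linked to GC content or length. The fit was also run on simulated counts that held no GC-linked library effect, so that run cannot show how calls fare under one.

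The 10 genes and the lists were chosen with earlier results of these data known. Genes of the pathway lists are named if among the 3 highest or 3 lowest called in a comparison, with at least 5 CPM on average. SPRY1 is an exception. Counts of called genes in the lists set no such minimum. Cell type markers, overlapping genes and the nearest genes by correlation are named whatever their call. A few listed genes are not reported here.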

Additional observations from a re-analysis of the deposited data

Results flagged for a closer look

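DUSP4 was singled out because its response to alisertib differed between cells with and without TGFβ by the interaction test, with a value of 0.31 ± 0.06 on the log2 scale (edgeR adjusted p = 0.043). The alisertib effect was 0.29 ± 0.04 in Combination against TGFB and -0.02 ± 0.04 in ALIS against CTL. All 3 Combination libraries lay above all 3 TGFB libraries, while ALIS and CTL overlapped. The interaction was not called in 13 of the 19 other settings tried. Groups of 3 libraries are too small for a test of single outlying libraries.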

How the results depend on the processing

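No paired analysis was possible because libraries are numbered 1 to 12 across the groups, so no number occurs in more than 1 group. Of 890 values of the 10 genes under other settings, 827 kept their side of the threshold, 41 lost a call, 19 gained one and 3 changed direction; 54 of the 827 changed sign without passing in either fit. The 3 changes of direction were those of ETV4 with the GC and length offset: -0.215 in TGFB against CTL, -0.154 in Combination against CTL and -0.205 in Combination against ALIS; the cause was not tested. Counts of called genes among the 10 stayed within 1.5 times in TGFB against CTL, Combination against CTL and Combination against ALIS. In ALIS against CTL the count was 4 without libraries 1, 6, 9 and 10, against 1; the cause was not tested. In Combination against TGFB it was 3 with RLE factors and 3 with only the 2 groups fitted, and 2 to 3 without 1 library, against 5; these fits hold fewer samples except the first, whose cause was not tested. For the interaction it was 0 with RLE factors, 0 with total counts only, 3 without the 4 libraries, 3 with their indicator, 3 with the GC and length offset and 0 to 1 without 1 library, against 1. Over all genes the count of 1387 in ALIS against CTL ran from 623 to 5073, that of 428 in Combination against TGFB from 153 to 1820 and that of 58 for the interaction from 19 to 744.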
